A study of Mus musculus with 4 samples.

Results

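The Id genes Id1, Id2, Id3 and Id4 encode small helix-loop-helix proteins that lack a DNA-binding domain. They pair with E proteins, the common partners of basic helix-loop-helix (bHLH) transcription factors, and the resulting dimers cannot bind the E-box sequences at which bHLH factors act. Id proteins are known for keeping progenitors and glia from neuronal differentiation, and their genes are classical targets of bone morphogenetic protein (BMP) signalling through Smad proteins. In the mature retina, bHLH factors such as Neurod1 and Neurod4 are active in neurons, while Id genes are known mainly from progenitors and Müller glia. The members were the rows named Id1, Id2, Id3 and Id4, so 4 of the 21827 genes in the tables, and each had 1 row with an accepted fit in every library.

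Poly(A) RNA of sorted mouse retinal cells of postnatal day 12 (ICR background) was sequenced in 4 libraries, 1 per group. Dissociated retina was separated by flow cytometry into cells with surface Cd73, the enzyme encoded by Nt5e and carried by rods and rod precursors (Cd73P), and cells without it (Cd73N), which hold interneurons, Müller glia, ganglion cells and other cells. Each fraction came from wild-type retina, of normal littermates, and from Ezh2-cKO retina. In the latter, floxed Ezh2, the gene of the histone H3K27 methyltransferase of Polycomb complex PRC2, was crossed with a Dkk3-driven Cre that is active in retinal progenitors from an early embryonic stage, so that the deletion was not limited to 1 cell type. The number of retinas pooled at this age was not given in the sources used here. Levels are FPKM, in which the fragment count of a gene is divided by its exon length and by the size of the library, so that genes of unequal length can be compared.

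The fraction labels held, while gene-level Ezh2 did not pass the 1.5-fold threshold used below in either fraction. Nt5e stood at 0.84 FPKM (wild type) and 0.61 FPKM (labelled Ezh2-cKO) without the sort marker and at 125 and 123 FPKM with it, and all 10 rod markers were higher in Cd73P in both genotypes. Gene-level Ezh2 stood at 14.1 FPKM (wild type) and 15.9 FPKM (labelled Ezh2-cKO) in Cd73N, and at 5.38 and 3.45 FPKM in Cd73P. In Cd73N it was therefore not lower under the Ezh2-cKO label. In Cd73P the difference of log2(FPKM + 1) was -0.52, which did not pass 1.5-fold. A gene-level value cannot show whether a floxed exon was lost. Summed FPKM of 4 Y-linked genes, Cd73N first, was 26.8 and 27.9 in wild type against 0.72 and 0.50 in those labelled Ezh2-cKO. Xist, a transcript of female cells, was at 52.2 and 47.0 FPKM in wild type against 240 and 95.6 FPKM. Wild type thus held transcripts of both sexes, and genotype and the sex make-up of the animals cannot be told apart. Because there was 1 library per group, the differences below could not be checked against replicates and carry no p-value. The standard errors (SE) hold counting error and nothing else.

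The members lie on 4 chromosomes (mm9). Id1 lies on chromosome 2 at 152562010 to 152563146 on the plus strand, in 2 exons. Id2 lies on chromosome 12 at 25778664 to 25780957 on the minus strand, Id3 on chromosome 4 at 135699737 to 135701307 on the plus strand, and Id4 on chromosome 13 at 48356796 to 48359405 on the plus strand, each with up to 3 exons per transcript. All are protein coding. In GENCODE annotation of the same build, only the Id4 locus overlapped another gene, the long noncoding RNA gene A330033J07Rik on the opposite strand, which shared 171 of the 1660 exonic bases of Id4. The library kit did not mark strand, so reads of Id4 and of this RNA cannot be told apart there.

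Promoter sequence was at hand for 3 of the 4 members, Id2, Id3 and Id4, from RefSeq (GRCm38.p6); Id1 had no entry. The 250 bases before the transcription start are shown because these members moved together in Cd73N and apart in Cd73P. Capitals mark 4 motifs searched on both strands: the E-box CANNTG at which bHLH dimers bind, the Smad-associated GC-rich motif GGCGCC, the Smad-associated CAGAC, and the CCAAT box. The windows are at chr12:25096093-25096342 (minus strand), chr4:136143572-136143821 (plus strand) and chr13:48260866-48261115 (plus strand).
Id2: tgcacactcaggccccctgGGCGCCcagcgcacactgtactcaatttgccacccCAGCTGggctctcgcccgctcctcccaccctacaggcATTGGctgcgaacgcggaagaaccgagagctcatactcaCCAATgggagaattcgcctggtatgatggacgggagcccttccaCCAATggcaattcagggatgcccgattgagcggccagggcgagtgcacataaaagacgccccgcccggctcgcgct
Id3: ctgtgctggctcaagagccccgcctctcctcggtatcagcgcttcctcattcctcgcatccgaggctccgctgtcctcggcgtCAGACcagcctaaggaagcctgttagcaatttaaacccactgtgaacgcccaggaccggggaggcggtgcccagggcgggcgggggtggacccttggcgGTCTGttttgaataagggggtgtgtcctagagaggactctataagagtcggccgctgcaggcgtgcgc
Id4: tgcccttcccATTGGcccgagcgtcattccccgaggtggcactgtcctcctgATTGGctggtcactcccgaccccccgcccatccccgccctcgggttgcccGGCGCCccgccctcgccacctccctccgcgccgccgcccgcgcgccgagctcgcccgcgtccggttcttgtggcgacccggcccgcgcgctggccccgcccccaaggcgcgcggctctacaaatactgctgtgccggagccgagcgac

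No motif was found in all 3 windows. GGCGCC was found once in Id2 and once in Id4, and in 9.59% of 32851 promoter windows of this length. CCAAT was found 3 times in Id2 and 2 times in Id4 (33.8% of windows), CAGAC 2 times in Id3 only (42.2%), and CANNTG once in Id2 only (66.2%). No motif overlapped another. GC content was 62.8% in Id2, 62.8% in Id3 and 75.6% in Id4, against a median of 52.4% over all windows. These matches describe letters and not bound sites.

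Id3 was the highest member in each library, and Id4 was the lowest in 3 of them. In Cd73N wild type the levels were 46.9 FPKM for Id3, 25.0 for Id1, 23.9 for Id2 and 2.58 for Id4. In the Cd73N library labelled Ezh2-cKO they were 240.1 FPKM for Id3, 142 for Id1, 140.0 for Id2 and 9.16 for Id4. Id1 and Id2 thus lay side by side in both Cd73N libraries, with overlapping deposited bounds, and the other gaps of that order were outside the bounds. In Cd73P wild type the levels were low and close, with 3.69 FPKM for Id3, 3.35 for Id1, 2.62 for Id4 and 2.12 for Id2, and the bounds of each neighbouring pair overlapped. In the Cd73P library labelled Ezh2-cKO they were 8.75 FPKM for Id3, 5.61 for Id1, 5.14 for Id2 and 0.95 for Id4, and only Id1 and Id2 had overlapping bounds. Of the 16 member values, 8 exceeded the upper bound listed beside them, so a value can fall outside its bounds.

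**Figure D1:**
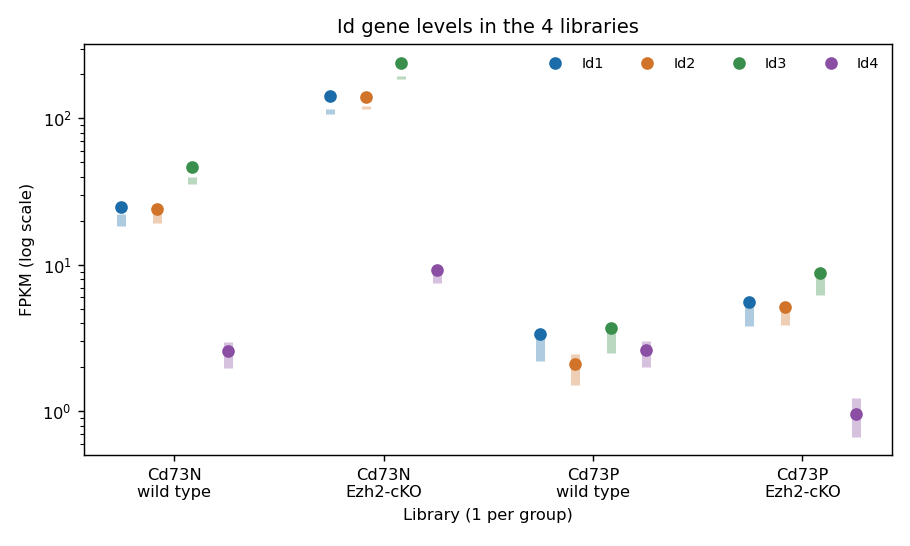
FPKM (log axis) of Id1, Id2, Id3 and Id4 in each of the 4 libraries; dots are the deposited values and pale bars run from the deposited lower to the upper bound. Id1, Id2 and Id3 are highest in the Cd73N library labelled Ezh2-cKO (240.1 FPKM for Id3), while Id4 is lowest in the Cd73P library labelled Ezh2-cKO (0.95 FPKM).

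The make-up of the family differed most in Cd73P wild type. Id4 held 22.2% of the summed Id FPKM there, against 2.62% in Cd73N wild type, 1.73% in the Cd73N library labelled Ezh2-cKO and 4.66% in the Cd73P library labelled Ezh2-cKO. Id1 held between 25.4% and 28.5% in all 4 libraries. Id3 held 47.6% and 45.2% in the Cd73N libraries, 31.3% in Cd73P wild type and 42.8% in the Cd73P library labelled Ezh2-cKO. The shares of Id1, Id2 and Id3 in the last library were therefore close to those in Cd73N.

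**Figure D2:**
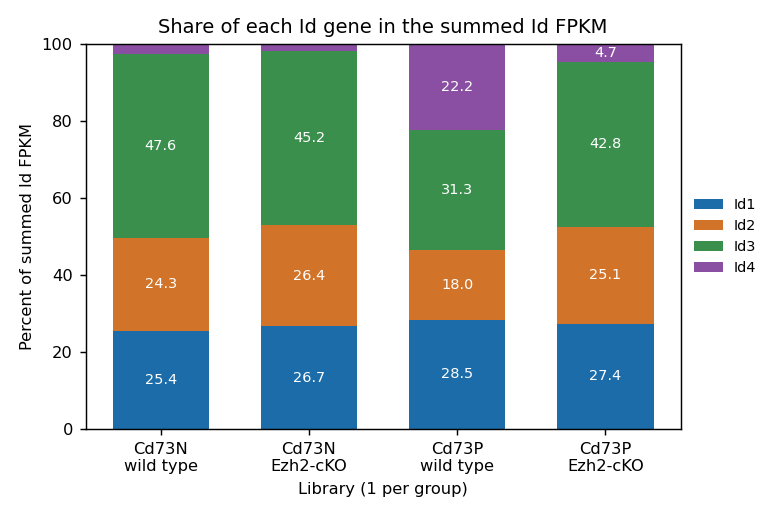
Share of each Id gene (percent of the summed Id FPKM, stacked to 100) in each of the 4 libraries. Id4 takes 22.2% in Cd73P wild type and under 5% in each of the other libraries.

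The first comparison asked how the Id genes were divided between rods and other retinal cells in wild type. Id1, Id2 and Id3 were higher in Cd73N, by 7.46-fold, 11.3-fold and 12.7-fold of FPKM. Id4 was not divided by the sort, at 2.58 FPKM in Cd73N and 2.62 in Cd73P. On the log2(FPKM + 1) scale, on which the differences of low genes are understated, Cd73P minus Cd73N was -2.58 (SE 0.12) for Id1, -3.00 (SE 0.12) for Id2, -3.35 (SE 0.11) for Id3 and 0.02 (SE 0.14) for Id4. A gene was counted as changed at 1.5-fold on this scale, the study's threshold, so 3 of 4 members were lower in Cd73P and none was higher. Of 21700 genes, 27.9% were lower and 9.07% higher, and of those at 1 FPKM or more in a library 45.9% were lower and 15.4% higher, so lower values in Cd73P were common. Scaling the libraries by their median ratio shifts log2 FPKM in this comparison by 0.31. In bulk samples such as these, more cells of a type and more RNA per cell cannot be told apart.

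In the libraries labelled Ezh2-cKO all 4 members were lower in Cd73P. Of 21699 genes, 29.1% were lower and 8.4% higher, and of those at 1 FPKM or more 45.6% were lower and 13.8% higher. FPKM was 25.3-fold higher in Cd73N for Id1, 27.2-fold for Id2, 27.4-fold for Id3 and 9.61-fold for Id4. Cd73P minus Cd73N was -4.43 (SE 0.097) for Id1, -4.52 (SE 0.089) for Id2, -4.63 (SE 0.070) for Id3 and -2.38 (SE 0.12) for Id4. Id4, level between the fractions in wild type, was thus in Cd73N for the most part in these libraries, through a higher Cd73N and a lower Cd73P value. The fraction comparisons of the genotypes share no library with each other.

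The second comparison asked what differed between genotypes in Cd73N cells. All 4 Id genes rose in the library labelled Ezh2-cKO, in which gene-level Ezh2 was not lower. Of 21701 genes, 7.18% rose and 1.71% fell, and of those at 1 FPKM or more 11.6% rose and 2.87% fell. Id2 rose from 23.9 to 140.0 FPKM, or 5.85-fold, a difference of 2.50 (SE 0.051) on the log2 scale. Id1 rose from 25.0 to 142 FPKM, or 5.67-fold, a difference of 2.46 (SE 0.060). Id3 rose from 46.9 to 240.1 FPKM, or 5.12-fold, a difference of 2.33 (SE 0.038). These 3 differences were within 0.17 of each other and ranked 34th (Id2), 41st (Id1) and 52nd (Id3) from the highest among the genes compared. Id4 rose less, from 2.58 to 9.16 FPKM, or 3.56-fold, a difference of 1.51 (SE 0.11) that ranked 255th. Summed over the family, Id FPKM rose from 98.4 to 531, or 5.40-fold.

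Genotype differences were smaller in Cd73P, and the members divided. Id1, Id2 and Id3 rose in the library labelled Ezh2-cKO and Id4 fell. Of 21702 genes, 2.26% rose and 2.38% fell, and of those at 1 FPKM or more 4.31% rose and 4.53% fell. Id3 went from 3.69 to 8.75 FPKM, a difference of 1.06 (SE 0.13), and Id2 from 2.12 to 5.14 FPKM, a difference of 0.98 (SE 0.14). Id1 went from 3.35 to 5.61 FPKM, a difference of 0.60 (SE 0.14) that lay just past the threshold of 0.58. Id4 went from 2.62 to 0.95 FPKM, or 2.74-fold lower, a difference of -0.89 (SE 0.14). No member reached 10 FPKM in either Cd73P library. With a pseudocount of 5 in place of 1, only Id3 passed the threshold in Cd73P, and no member counted as lower. Id1 also missed it with libraries scaled to equal FPKM sums (0.57) and with the midpoints of the bounds (0.56).

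**Figure D3:**
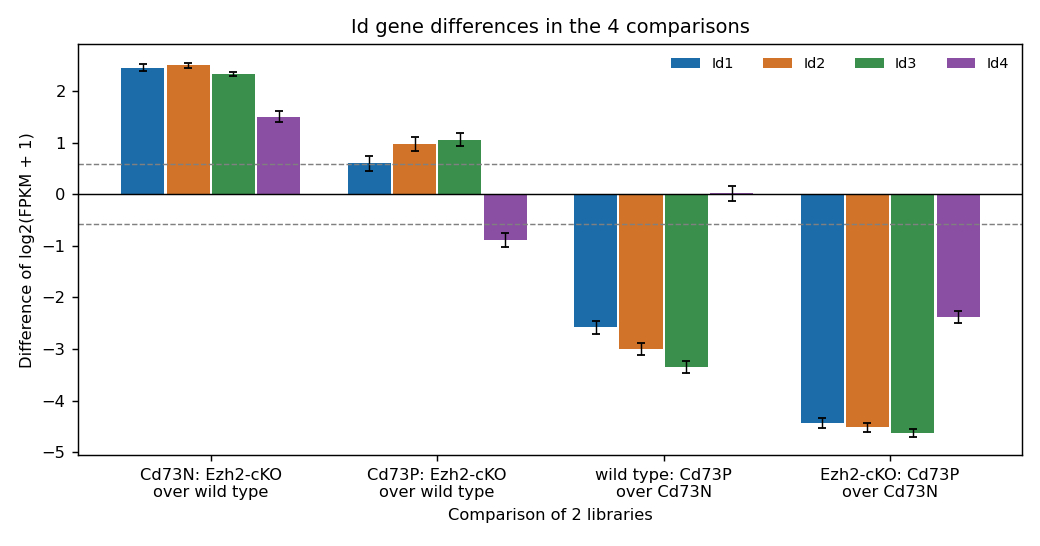
Difference of log2(FPKM + 1) for each Id gene in 4 comparisons of 2 libraries; error bars are 1 SE of counting error and dashed lines mark 1.5-fold. In Cd73N all bars for the library labelled Ezh2-cKO over wild type point up (1.51 to 2.50), and in Cd73P the Id4 bar points down (-0.89).

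The genotype difference was larger in Cd73N than in Cd73P for each member. Cd73P minus Cd73N of the genotype differences was -1.85 (SE 0.16) for Id1, -1.52 (SE 0.15) for Id2, -1.28 (SE 0.13) for Id3 and -2.39 (SE 0.18) for Id4. With 1 library per group, the spread between animals or sorts is not in these SE. Id4 was the only member whose genotype differences had opposite signs in the fractions.

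Müller glia genes moved with Id1, Id2 and Id3. In Cd73N, all 18 Müller glia markers rose in the library labelled Ezh2-cKO, by a median of 1.78, and their summed FPKM went from 1658 to 7056, or 4.26-fold. Of all genes compared, 7.18% rose there, and 11.6% of those at 1 FPKM or more. The list holds Apoe, Dkk3, Rlbp1, Dbi and Slc1a3, which the study named among its top rises in Cd73N. The rise of these genes was thus known beforehand. In Cd73P, 12 of 18 were higher and none was lower, beside 2.26% of all genes higher (4.31% at 1 FPKM or more). The Müller glia sum there went from 194 to 359, or 1.85-fold, beside a rise of summed Id FPKM from 11.8 to 20.5, or 1.74-fold. No marker of this list was below 0.1 FPKM in any library. Glul, the glutamine synthetase of Müller glia, went from 257 to 1760 FPKM in Cd73N. Summed Id FPKM came to 5.93% and 7.53% of the summed Müller glia FPKM in the Cd73N libraries and to 6.06% and 5.69% in the Cd73P libraries, wild type first. In the same order, Id1 stood at 1.51%, 2.01%, 1.72% and 1.56%, Id2 at 1.44%, 1.98%, 1.09% and 1.43%, and Id3 at 2.83%, 3.40%, 1.90% and 2.43%. Id4 stood at 0.16%, 0.13%, 1.35% and 0.27%. The proportions of Id2 and Id3 were thus lowest in Cd73P wild type, where that of Id4 was highest. The level in Cd73P as a percentage of that in Cd73N was 13.4% for Id1, 8.86% for Id2 and 7.87% for Id3 in wild type, against a median of 6.75% over the 18 markers, and 3.96%, 3.67% and 3.64% against 3.74% in the libraries labelled Ezh2-cKO. The markers ranged from 2.65% to 82.8% in wild type and from 2.17% to 31.6% under the Ezh2-cKO label. The highest was Rdh10, which alone held 35.2 of the 194 FPKM in Cd73P wild type, so the markers did not divide alike. The part of Müller glia in the Id values was not tested.

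Many, but not all, immediate early genes also moved with the Id genes in Cd73N. Of 13 immediate early and dissociation-response genes, 8 rose in Cd73N and none fell, with a median of 2.096, and their sum went from 341 to 1446 FPKM. Over all genes, 7.18% rose and 1.71% fell there (11.6% and 2.87% at 1 FPKM or more). The 5 listed genes that did neither were Jund, Nr4a1, Atf3, Hspa1a and Hspa1b. Fos went from 53.3 to 465 FPKM and Ier2 from 37.8 to 210 FPKM. In Cd73P, 3 were higher and 2 were lower, beside 2.26% and 2.38% of all genes (4.31% and 4.53% at 1 FPKM or more). The sums there were 258 and 253 FPKM, wild type first. Their part in the Id values was not tested.

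Other cells that can express Id genes moved less evenly. The counts below stand beside 7.18% of all genes that rose in Cd73N and 1.71% that fell (11.6% and 2.87% at 1 FPKM or more). Of 10 endothelial markers, 2 rose in Cd73N, 1 fell and 7 did neither, and the risers were Kdr (22.6 to 86.2 FPKM) and Flt1 (2.86 to 16.2 FPKM), which encode receptors of vascular endothelial growth factor. The faller was Esam, from 23.9 to 13.3 FPKM. The other endothelial markers ranged in Cd73N from Cdh5 (0.39 and 0.48 FPKM) to Egfl7 (4.90 and 4.26 FPKM) and Cldn5 (3.08 and 5.09 FPKM), and the endothelial sum went from 66.8 to 134 FPKM. The rise of that sum lay in Kdr and Flt1, so the sum does not describe the list. None of 7 pericyte markers passed the threshold in Cd73N, with sums of 261 and 294 FPKM. Of 6 astrocyte markers 3 were higher, Gfap (2.86 to 11.4 FPKM), Aldh1l1 (1.70 to 6.04 FPKM) and S100b (2.16 to 3.80 FPKM), with sums of 9.84 and 26.0 FPKM. Of 10 markers of progenitors and proliferation 1 was higher and none was lower, with sums of 102 and 102 FPKM. The parts of these cells in the Id values were not tested.

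The genes nearest to each member in pattern were sought by the distance between mean-centred log2(FPKM + 1) values over the 4 libraries, over 7599 genes that reached 10 FPKM in any library. Zfp36l1 (distance 0.12), Pdyn (0.14) and Qrfpr (0.24) were nearest to Id1. Mlc1 (0.20), Glul (0.21) and Hes1 (0.24) were nearest to Id2, and Mlc1 (0.13), Cp (0.20) and Hes1 (0.22) to Id3. Egr1 (0.24), Ezr (0.34) and Tmem98 (0.40) were nearest to Id4. Id2 and Id3 therefore shared Mlc1 and Hes1, and none of the genes named for Id4 was named for another member. Among the members, the distance was 0.26 between Id2 and Id3, 0.37 between Id1 and Id2, 0.59 between Id1 and Id3, and 2.64 to 3.18 between Id4 and the others. With 4 libraries many genes have like patterns, and these distances are a description.

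E proteins, the partners that Id proteins bind, did not pass the threshold between genotypes in either fraction. Tcf3 (E2A) was at 12.5 and 14.2 FPKM in Cd73N, wild type first here and below, and at 6.01 and 6.27 in Cd73P. Tcf4 (E2-2) was at 25.8 and 30.0 FPKM in Cd73N and at 7.49 and 6.09 in Cd73P. Tcf12 (HEB) was at 21.3 and 19.3 FPKM in Cd73N and at 34.5 and 28.6 in Cd73P. Tcf3 and Tcf4 were lower in Cd73P in both genotypes. Tcf12 was higher in Cd73P in wild type, by 0.67 on the log2 scale, and its difference of 0.55 in the libraries labelled Ezh2-cKO did not pass. Summed Id FPKM was 98.4 against 59.6 for the 3 E proteins in Cd73N wild type and 531 against 63.5 in the Cd73N library labelled Ezh2-cKO. In Cd73P it was 11.8 against 48.0 in wild type, and 20.5 against 41.0 under the Ezh2-cKO label. Id transcripts thus exceeded E protein transcripts in both Cd73N libraries and were fewer in both Cd73P libraries.

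Class II bHLH factors, the tissue-specific partners of E proteins, were mixed between genotypes. Of 14 such retinal factors, 2 rose and 2 fell in Cd73N, and none rose and 3 fell in Cd73P. Over all genes, 7.18% rose and 1.71% fell in Cd73N (11.6% and 2.87% at 1 FPKM or more). The shares in Cd73P were 2.26% and 2.38% (4.31% and 4.53% at 1 FPKM or more). Bhlhe23, a bipolar cell factor, fell from 98.7 to 42.3 FPKM in Cd73N, and in Cd73P from 3.47 to 0.64. Bhlhe22 fell from 22.8 to 13.8 FPKM in Cd73N, and in Cd73P from 1.98 to 0.47. The third factor to fall in Cd73P was Neurod4, from 12.4 to 3.69 FPKM. In Cd73N it was at 350 and 261 FPKM, a difference of -0.42 that did not pass. Nhlh1, named after its values were seen because it stayed under 10 FPKM, rose in Cd73N from 0.59 to 1.93 FPKM. Neurod1, a photoreceptor factor, was at 102 and 94.7 FPKM in Cd73N and at 440 and 339 in Cd73P, so it was high where the Id genes were low.

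In the list of Hes and Hey bHLH proteins, several of which act downstream of Notch, 3 of 6 rose in the Cd73N library labelled Ezh2-cKO and none fell. Over all genes, 7.18% rose and 1.71% fell there (11.6% and 2.87% at 1 FPKM or more). Hes6, the highest of the list in Cd73N wild type, was at 92.3 and 75.5 FPKM in Cd73N. It did not pass between genotypes in either fraction. Hes1 rose from 16.2 to 80.0 FPKM in Cd73N, and in Cd73P from 0.92 to 2.43, differences of 2.23 (SE 0.059) and 0.83 (SE 0.15). Hes5 rose from 9.05 to 21.4 FPKM in Cd73N, and was at 2.12 and 1.36 FPKM in Cd73P. Hey2, also named after its values were seen, rose from 3.25 to 9.996 FPKM in Cd73N. Hey1 fell in Cd73P, from 6.47 to 1.84 FPKM, and was at 13.0 and 12.9 FPKM in Cd73N. Hes1 was thus the member of this list that rose in both fractions, as Id1, Id2 and Id3 did.

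Genes of the BMP and TGF-beta pathway upstream of Id transcription were counted by list. Of all genes compared, 7.18% rose and 1.71% fell in Cd73N (11.6% and 2.87% at 1 FPKM or more). In Cd73P, 2.26% rose and 2.38% fell. A single riser in a list of 11 or 12 genes is near the Cd73N share of risers. Of 11 ligands, 1 rose in Cd73N and none fell, and none passed in Cd73P. The riser was Inhba, an activin subunit named after its values were seen, from 0.37 to 2.33 FPKM. Tgfb2, the highest ligand, was at 56.3 and 78.6 FPKM in Cd73N, a difference of 0.47 that did not pass. Gdf11 was at 21.8 and 16.0 FPKM in Cd73N, and among the BMP genes Bmp7 was at 8.95 and 6.49, Bmp5 at 1.51 and 2.07, and Bmp2, Bmp4 and Bmp6 were below 0.6 FPKM in each library. Of 12 receptors, 1 rose in Cd73N, the type I BMP receptor gene Bmpr1b, from 1.52 to 10.2 FPKM, a difference of 2.15 (SE 0.061). Bmpr1a, its close relative, was at 15.0 and 21.9 FPKM in Cd73N and at 29.7 and 31.8 FPKM in Cd73P, differences of 0.51 and 0.096 that did not pass.

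Of 6 Smad transducers, 1 fell in Cd73N and none passed in Cd73P. Smad3, which carries TGF-beta and activin signals, fell from 22.9 to 14.9 FPKM, a difference of -0.59 at the edge of the threshold. Smad1 was at 12.7 FPKM in both Cd73N libraries, and Smad5 was at 8.87 and 12.2. Of 12 inhibitors of the pathway, 3 rose in Cd73N and none passed in Cd73P. Fstl1, a secreted BMP-binding protein, rose from 21.5 to 39.3 FPKM. The others, named after their values were seen, were Bmper (0.46 to 4.45 FPKM), a secreted modulator of BMP, and Smad6 (0.80 to 2.36 FPKM), an inhibitory Smad that is itself a classical BMP target. Smad7 was at 2.03 and 2.28 FPKM in Cd73N and did not pass.

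Cyclin-dependent kinase inhibitors, some of them known to be held down by Id proteins, were mixed between genotypes. Whether Id proteins acted on them was not tested. In Cd73N 3 of 5 rose and none fell, and in Cd73P 2 rose and 1 fell. Over all genes, 7.18% rose and 1.71% fell in Cd73N (11.6% and 2.87% at 1 FPKM or more). The shares in Cd73P were 2.26% and 2.38% (4.31% and 4.53% at 1 FPKM or more). Cdkn1a (p21) rose from 9.87 to 32.5 FPKM, a difference of 1.62 (SE 0.063), alongside the Id genes. In Cd73P it fell from 3.60 to 1.20 FPKM, a difference of -1.07 (SE 0.11), in the direction of Id4 and opposite to Id1, Id2 and Id3. Cdkn2b (p15), named after its values were seen, rose from 0.47 to 6.31 FPKM in Cd73N, and in Cd73P from 0.091 to 1.47. Cdkn2a was the other inhibitor that rose, with Cd73N levels of 1.10 and 20.7 FPKM. For Cd73P the wild-type table lists it at 0, against 1.87 FPKM with the label Ezh2-cKO, and no fold is given. The study described this gene as released from repression in Cd73N and not in Cd73P. Here its Cd73P difference of 1.52, at a low level, was counted as a rise. Cdkn1b (p27) and Cdkn1c (p57) did not pass in either fraction.

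**Figure D4:**
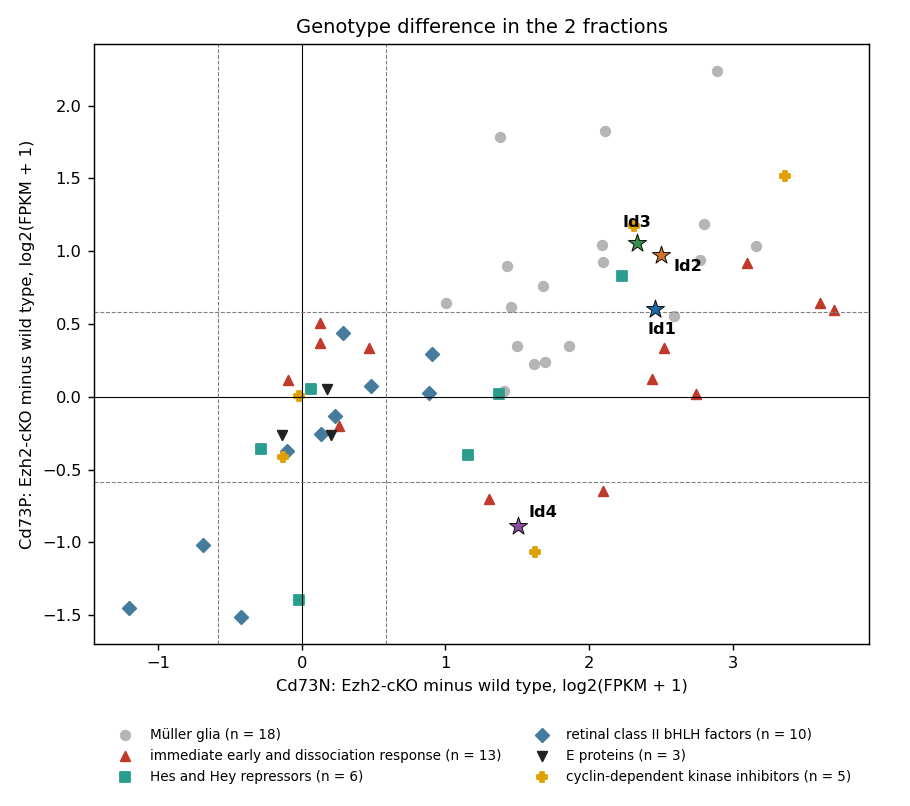
Difference of log2(FPKM + 1), library labelled Ezh2-cKO minus wild type, in Cd73N (horizontal axis) and Cd73P (vertical axis) for the 4 Id genes (stars) and for members of 6 gene lists with FPKM of at least 1 in a library; dashed lines mark 1.5-fold. Id1, Id2 and Id3 lie among the Müller glia markers, and Id4 lies below 0 in Cd73P (-0.89) beside Cdkn1a (-1.07).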

How the data were processed

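Reads were single-end, of 36 bases. The authors mapped them to mm9 with TopHat2 2.0.8b (50 hits at most for a read) and obtained FPKM for RefSeq genes with Cufflinks 2.1.1. The deposited FPKM tables hold 23021 rows per library with lower and upper FPKM bounds and a fit status, and were used without further scaling. Rows of 1 symbol were summed and 731 small RNA symbols left out, which gave 21827 genes; a gene without OK status in both libraries was left out of that comparison. Comparisons are differences of log2(FPKM + 1) with a 1.5-fold threshold. SE were taken from the bounds, whose width was read as 4 SE; the bounds of the 16 member values have the width of Poisson counts of 46.5 to 5944. The depth in reads is unknown, since FPKM was used alone. Relative depth was estimated from the FPKM that 1 read is worth in low genes. It was 1.20, 0.99 and 1.03 times that of Cd73N wild type in Cd73N Ezh2-cKO, Cd73P wild type and Cd73P Ezh2-cKO. The estimate is rough, since 44.3%, 38.6% and 38.7% of the low-gene ratios, in the same order, lay at small whole-number fractions of it. Starts have 1 added to the listed position.

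The members and the gene lists were chosen with earlier results of these data known. Genes of the pathway lists were named when they passed 1.5-fold and reached FPKM of 10 in 1 library, up to 4 per list and comparison, and up to 3 by level per marker list; the 3 nearest genes per member were named. Other genes are given as label checks or counted markers, and 1 counted gene is not reported here by name. Lists are described by counts and medians, with no set test. Of the marker symbols, 2 amacrine and 1 horizontal were not matched. The call code was tested on simulated data. Python 3.11.15, NumPy 2.4.6 and pandas 2.3.3 were used. Alternatives were pseudocounts of 0.1, 5 and none, median-ratio and sum scaling, a 2-fold threshold, an FPKM minimum of 10, non-overlapping bounds and, added after the data were seen, the midpoint of the bounds.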

Additional observations from a re-analysis of the deposited data

Results flagged for a closer look

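Genotype differences pointed in opposite directions in the fractions, past 1.5-fold in each, for Id4 and, among genes of the pathway and immediate early lists that reached 10 FPKM in a library, for 3 more. None of these differences between fractions was tested, since each fraction had 1 library per genotype, and in Cd73N gene-level Ezh2 was not lower under the Ezh2-cKO label. The share of all genes with such opposite differences is not given here, so the pattern cannot be called unusual. Id4 had differences of 1.51 in Cd73N and -0.89 in Cd73P, so that Cd73P minus Cd73N was -2.39. Cdkn1a had differences of 1.62 and -1.07, and a value of -2.69. Among the immediate early genes, Egr1 had differences of 1.31 and -0.70, and a value of -2.01. Jun, named after its values were seen, had differences of 2.096 and -0.65, and a value of -2.74. Genes of the cell type lists also had opposite differences past 1.5-fold in each fraction, here without an FPKM minimum. They were likewise named after their values were seen, with Cd73N before Cd73P. They were Gnat1 (-0.78 and 1.31) and Esrrb (-0.63 and 0.76) of rods, Arr3 (1.23 and -0.60) and Pde6h (0.71 and -0.59) of cones, and Gad1 (0.61 and -0.98) of amacrine cells. Gad1 was low, at 1.74 FPKM at most in any library.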

How the results depend on the processing

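All 16 member differences kept their sign under each alternative run that gave a value (94 values), and 48 of the 94 stayed within about 2 SE of counting error of the value reported. No paired analysis was possible because each group had 1 library, and no library could be left out. The 4 rises in Cd73N became 3 with an FPKM minimum of 10, which Id4 did not reach. The 3 members lower in Cd73P than in Cd73N in wild type numbered 3 under each alternative run. The 4 lower in the libraries labelled Ezh2-cKO became 3 with that minimum and without a pseudocount, both of which leave out Id4. The genotype counts in Cd73P, 3 higher and 1 lower, became 2 and 1 with sum scaling and with the midpoints of the bounds, and 1 and 0 with a pseudocount of 5, 1 and 0 with a 2-fold threshold, and 0 and 0 with an FPKM minimum of 10, which no member reached there. Without a pseudocount the number lower was 0, because Id4 was under 1 FPKM and was left out. The log2 difference of summed Id FPKM in Cd73N was 2.42, against 2.50 with median scaling and 2.57 with sum scaling. For Cd73P against Cd73N in wild type it was -2.96, against -2.62 with a pseudocount of 5, -2.66 with median scaling and -2.55 with sum scaling. In the libraries labelled Ezh2-cKO it was -4.63, against -4.40, -4.36 and -4.42 in the same order. The difference between fractions of the genotype differences was -1.67, against -1.87 with sum scaling. Median scaling shifts log2 FPKM by 0.078 and 0.038 between genotypes in Cd73N and Cd73P and by 0.31 and 0.28 between fractions (wild type first), and sum scaling by 0.15, -0.059, 0.43 and 0.22 in the same order. The bounds of the member values have the width of 46.5 counts at the least, which limits the precision of low values.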

Other observations

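Lists of the remaining cell types are given as counts and summed FPKM in the order Cd73N wild type, Cd73N Ezh2-cKO, Cd73P wild type and Cd73P Ezh2-cKO, the latter of each pair being the library labelled so. Between genotypes, 7.18% of all genes rose and 1.71% fell in Cd73N (11.6% and 2.87% at 1 FPKM or more). The shares in Cd73P were 2.26% and 2.38% (4.31% and 4.53% at 1 FPKM or more). They also apply to the lists of the next paragraph. Of 10 microglia markers, 4 rose with the Ezh2-cKO label in Cd73N and none passed in Cd73P, with sums of 110, 160, 23.4 and 30.6 FPKM. Of 12 bipolar markers, 6 were lower in Cd73N, and in Cd73P 1 was higher and 8 were lower, with sums of 2027, 1138, 122 and 69.8 FPKM. Of 10 cone markers, 3 were higher in Cd73N and 8 were lower in Cd73P, with sums of 4721, 6078, 422 and 200.3 FPKM. Of 10 rod markers, 7 were lower in Cd73N and 3 were higher in Cd73P, with sums of 504, 518, 11009 and 15483 FPKM.

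Of 8 amacrine markers found, 2 were higher in Cd73N and 1 was lower in Cd73P, with sums of 27.1, 45.0, 29.3 and 24.0 FPKM. Of 10 ganglion cell markers, 2 were higher and 1 was lower in Cd73N and 1 was higher in Cd73P, with sums of 17.3, 44.2, 9.96 and 13.2 FPKM. Of 6 horizontal cell markers found, 1 was lower in Cd73N and none passed in Cd73P, with sums of 101, 56.0, 430.2 and 288 FPKM. Nearly all of these sums was Ndrg1, at 99.5, 54.0, 429.8 and 287.2 FPKM, and it was the marker that was lower. The other horizontal markers were at 1.08 FPKM or below in each library, so the sums do not describe the list. Of 8 markers of retinal pigment epithelium, none passed in Cd73N and 2 were lower in Cd73P, with sums of 8.76, 8.32, 50.7 and 42.7 FPKM, and 6 of 8 were higher in Cd73P than in Cd73N in wild type. Over all genes, 9.07% were higher in that fraction comparison (15.4% at 1 FPKM or more). In Cd73P, 1 endothelial marker was higher and 1 was lower, 1 pericyte marker was lower, and no astrocyte or proliferation marker passed.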
